A study of Rattus norvegicus with 6 samples.

Results

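The hemidesmosome and laminin-332 gene set held 9 members: Lama3, Lamb3, Itga6, Itgb4, Itga3, Col17a1, Dst, Plec and Cd151. They were chosen by gene symbol, with earlier results of these data known, from 14217 genes that had a probe set of their own on the array. A probe set is a group of array probes designed against 1 transcript, and 16 probe sets carried the 9 symbols. Dst had 5 and Itga6 had 4, and for these the brightest one, by its mean over the 6 arrays, stands for the gene. The other 7 genes had 1 each.

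Hemidesmosomes are the junctions that fix the basal cells of a stratified epithelium to its basement membrane. On the outside, the integrin made of the Itga6 and Itgb4 chains binds laminin-332, a basement membrane protein whose α3 and β3 chains are encoded by Lama3 and Lamb3. On the inside, the plakins encoded by Plec and Dst tie the junction to keratin filaments, and the transmembrane collagen encoded by Col17a1 spans it. In the mouth, the junctional epithelium is held to the tooth by hemidesmosomes and a basal lamina, and the same structures are known at the surface of implants.

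The samples came from male Sprague-Dawley rats that lost their upper first molars on the left and the right at an age of 4 weeks. Peri-implant soft tissue (3 arrays) was taken 4 weeks later from the left side, where the socket had received a titanium alloy implant. Oral mucosal tissue (3 arrays) was taken at the same time from the right side, where the socket had healed without one. Both groups therefore had a tooth removed, and the implant cannot be told apart from the side of the mouth. Whether the 3 samples of a tissue came from different animals is not stated, so the spread behind each p-value may be technical.

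Signals were log2 values from arrays that the authors had scaled alike, with array medians from 6.62 to 6.78. The used probe sets of all 9 members were measured well inside the range. Their lowest group mean was 9.10, above the value of 5.90 below which a signal is called dim here, and their highest single value was 13.95. No value came closer than 2.34 to the highest signal of its array. Epithelial markers were bright in both tissues. Cdh1, E-cadherin, averaged 13.46 ± 0.07 in peri-implant tissue and 13.13 ± 0.04 in mucosa (SD, n = 3 each). It was 1 of 3 pan-epithelial markers that rose, while 5 of the 9 fell, as given further on.

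Stretches of reference sequence show what lies just before the annotated starts of the member with the largest fall, the member that rose, and the one laminin chain in which an AP-1 motif was found. Each is 250 bases long and is given 5′ to 3′ on the gene's strand, from RefSeq on the GRCr8 rat build. Capitals mark matches on either strand to the motif TGANTCA, which AP-1 factors bind. They also mark the GC box GGGCGG and, in Col17a1, the TATA box letters TATAAA. The Col17a1 stretch is chr1:256518858-256519107 on the minus strand, that of Lama3 is chr18:3952517-3952766 on the plus strand, and that of Cd151 is chr1:205994050-205994299 on the plus strand. The Lama3 stretch lies inside the gene as annotated, before the start of a shorter transcript.
Col17a1: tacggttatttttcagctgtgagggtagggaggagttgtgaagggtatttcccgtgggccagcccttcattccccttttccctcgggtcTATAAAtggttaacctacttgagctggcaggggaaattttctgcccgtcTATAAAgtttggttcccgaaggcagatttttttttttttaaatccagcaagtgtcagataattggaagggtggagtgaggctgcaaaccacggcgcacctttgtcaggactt
Lama3: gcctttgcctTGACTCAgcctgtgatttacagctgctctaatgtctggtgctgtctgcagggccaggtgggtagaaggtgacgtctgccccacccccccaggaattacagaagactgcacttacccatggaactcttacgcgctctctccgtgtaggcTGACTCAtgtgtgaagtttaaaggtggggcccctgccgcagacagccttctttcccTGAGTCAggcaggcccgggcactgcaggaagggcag
Cd151: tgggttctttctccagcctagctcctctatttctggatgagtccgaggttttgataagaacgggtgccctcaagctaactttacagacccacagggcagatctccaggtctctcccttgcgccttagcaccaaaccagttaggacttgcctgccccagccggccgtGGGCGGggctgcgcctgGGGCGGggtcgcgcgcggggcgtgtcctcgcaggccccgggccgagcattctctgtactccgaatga

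The table of promoters held 6 of the 9 members, and Itga6, Itgb4 and Plec were not among them. Lama3 was the only one of the 6 with the AP-1 motif, which it held 3 times, at 240, 92 and 36 bases before the start. That motif occurred in 6.34% of the 33469 promoter stretches of the same length. The TATA box letters stood in Col17a1 at 161 and 112 bases before the start and in 12.9% of all stretches. The GC box was found in Cd151, Dst and Itga3 and in 30.5% of all stretches. The Dst and Itga3 stretches, like that of Lama3, lie inside the gene as annotated, and the end of the Lamb3 stretch does too. These matches are descriptions of the letters in the windows, and the arrays measured no binding.

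Signals for 7 of the 9 genes fell in peri-implant soft tissue, 1 rose and 1 did not pass the test. The threshold was a Benjamini-Hochberg adjusted p of 0.05 in limma over all 18625 probe sets tested. Of all 10585 genes tested, 26.1% were called, 11.0% lower and 15.2% higher. Because earlier results of these data were known when the members were chosen, these shares describe the background and are no independent test of the set. The falls were at least 2-fold for 5 members, Col17a1, Lama3, Dst, Lamb3 and Itga6, where 2.14% of all genes were called that much lower. The median difference over the members, peri-implant minus mucosal, was -1.03 on the log2 scale, and over all genes tested it was 0.03. The groups did not overlap for any of the 9 members. The same held for 41.9% of all genes, and for 17.9% with peri-implant tissue the lower one, as in 8 members.

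**Figure D1:**
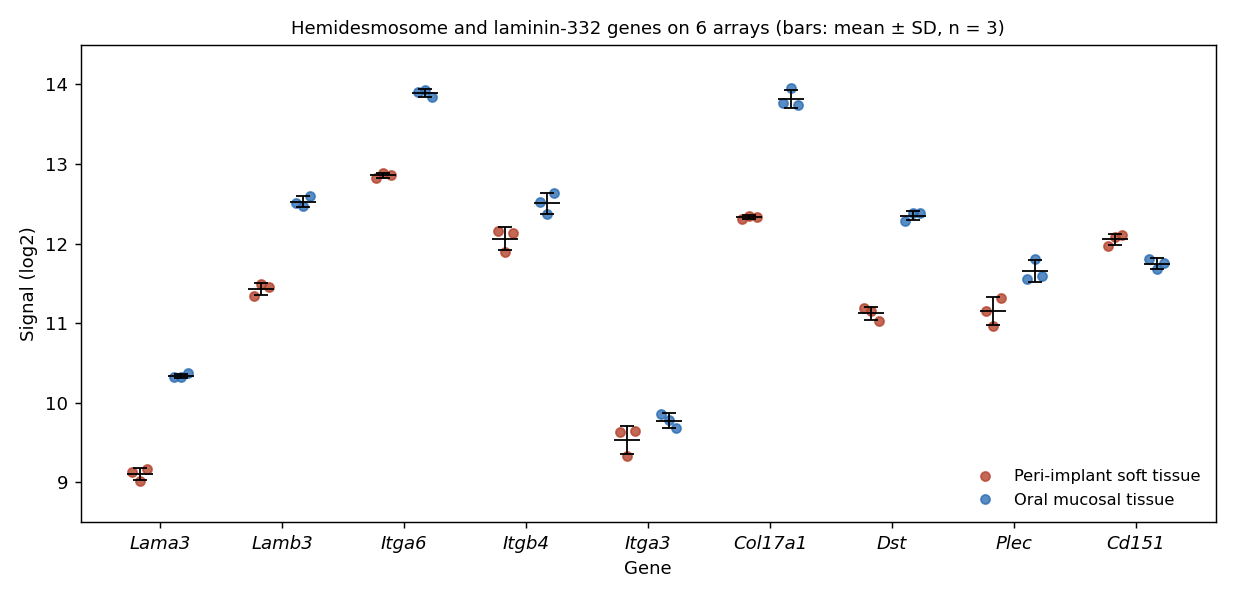
Log2 signal of the 9 genes (vertical axis) on each of the 3 peri-implant and 3 mucosal arrays, with the mean and SD as black bars. Points of the groups are apart for every gene, by the widest distance for Col17a1 and with Cd151 alone higher in peri-implant tissue.

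The laminin-332 chains stood lower in peri-implant tissue. Lama3, the α3 chain, which carries the sites that integrins bind, had signals of 9.13, 9.02 and 9.17 in peri-implant tissue, against 10.32, 10.33 and 10.37 in mucosa. All peri-implant arrays lay more than 1 log2 unit below all mucosal arrays. The gene fell by 1.24 (SE 0.09), or 2.36-fold, with a limma adjusted p of 6.02e-07. Lamb3, the β3 chain, had signals of 11.34, 11.49 and 11.45 in peri-implant tissue, against 12.51, 12.47 and 12.60 in mucosa, and again the groups were well apart. It fell by 1.10 (SE 0.07), or 2.14-fold (limma adjusted p = 1.99e-07). Within arrays, the log2 ratio of Lama3 to Lamb3 differed between the tissues by -0.14, and its values overlapped (exact permutation test, two-sided, p = 0.2).

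The chains of the hemidesmosomal integrin were both lower, by different amounts. Itga6, the α6 chain, had signals of 12.83, 12.89 and 12.86 in peri-implant tissue, against 13.91, 13.93 and 13.84 in mucosa. The arrays of either tissue were nearly equal, and the gene fell by 1.03 (SE 0.07), or 2.04-fold (limma adjusted p = 2.96e-07). Itgb4, the β4 chain, which pairs with no α chain but α6, had signals of 12.16, 11.90 and 12.13 in peri-implant tissue, against 12.52, 12.37 and 12.63 in mucosa. Here the highest peri-implant array came close to the lowest mucosal array. Itgb4 fell by 0.45 (SE 0.09), or 1.36-fold, with a limma adjusted p of 0.00291. It did not pass when the variance trend was left out (limma adjusted p = 0.0588) or when arrays were centred on epithelial markers, as given further on. The within-array ratio of Itga6 to Itgb4 differed by -0.58 between the tissues, lower on every peri-implant array than on any mucosal array. The exact permutation p of that difference was 0.1, the smallest that 3 against 3 arrays allow, so the design cannot place it below 0.05. Both chains are also made outside hemidesmosomes, Itga6 in endothelium and both in Schwann cells.

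Itga3, the α3 chain, pairs with Itgb1 in a laminin receptor that basal keratinocytes carry outside hemidesmosomes. Its signals were 9.63, 9.33 and 9.64 in peri-implant tissue, against 9.86, 9.79 and 9.68 in mucosa. The groups did not overlap, but only 0.04 separated the highest peri-implant array from the lowest mucosal array. The difference of -0.24 (95% interval -0.48 to 0.00) did not pass (limma adjusted p = 0.146). Its partner Itgb1 had 11.92, 11.94 and 11.80 in peri-implant tissue, against 12.42, 12.40 and 12.34 in mucosa, and fell by 0.50 (limma adjusted p = 2.06e-04). The ratio of Itga3 to Itgb1 overlapped between the tissues (difference 0.26, exact permutation p = 0.2).

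Col17a1, the collagen XVII chain, showed the largest fall of the set. Its signals were 12.31, 12.35 and 12.34 in peri-implant tissue, against 13.77, 13.95 and 13.74 in mucosa. The peri-implant arrays were nearly equal, with an SD of 0.02, and stood far below every mucosal array. The gene fell by 1.49 (SE 0.08), and 90 of the 10585 genes tested had a larger fall. Collagen XVII is a known target of autoantibodies in blistering disease of skin and mucosa.

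The plakins differed in the size of their fall. Dst, which encodes several plakins, among them the hemidesmosomal BPAG1, had signals of 11.19, 11.15 and 11.03 in peri-implant tissue, against 12.29, 12.39 and 12.38 in mucosa. It fell by 1.23 (SE 0.07), or 2.35-fold, with 162 genes showing a larger fall. Plec, plectin, which also links filaments in muscle, fibroblasts and other cells, had signals of 11.16, 10.97 and 11.32 in peri-implant tissue, against 11.56, 11.81 and 11.59 in mucosa. The arrays of each tissue spread more for Plec than for Dst, and Plec fell by 0.51 (SE 0.10), or 1.42-fold (limma adjusted p = 0.00205). Plec did not pass in the fit without the variance trend (limma adjusted p = 0.0511) or with that centring either. The within-array ratio of Dst to Plec differed by -0.72 and did not overlap (exact permutation p = 0.1, the smallest possible).

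Cd151, a tetraspanin that associates with the laminin-binding integrins at the cell surface, was the member that rose. Its signals were 11.97, 12.08 and 12.11 in peri-implant tissue, against 11.81, 11.68 and 11.76 in mucosa. The groups were apart by 0.16, and the difference was 0.30 (SE 0.07), or 1.23-fold (limma adjusted p = 0.0091). Among all genes tested, 2458 had a larger rise. Cd151 is expressed by many cell types, endothelium among them. It did not pass in a limma fit that left out the variance trend (adjusted p = 0.0832), nor when arrays were centred on their median (limma adjusted p = 0.0945).

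**Figure D2:**
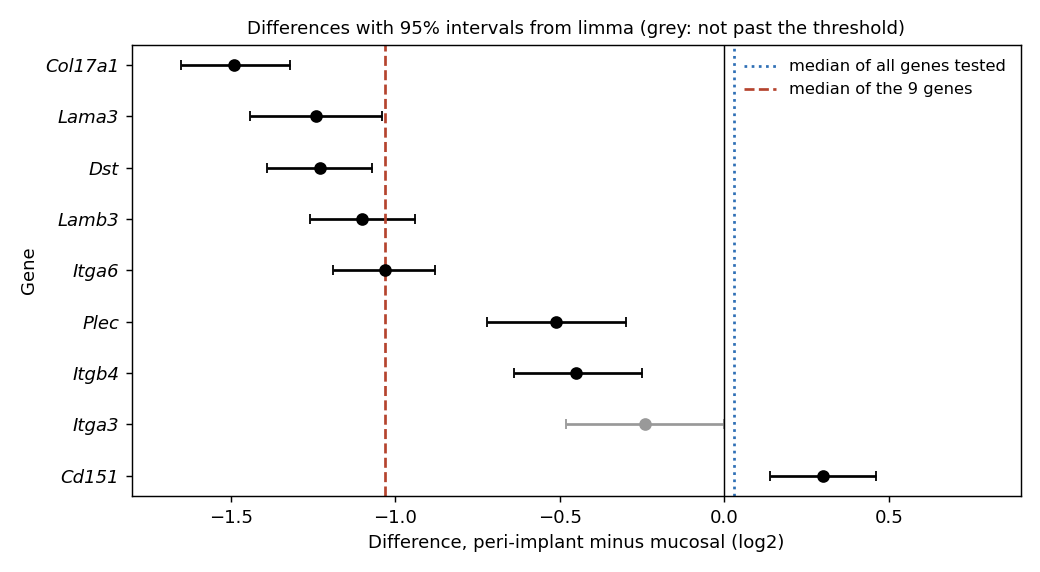
Difference between peri-implant and mucosal tissue on the log2 scale (horizontal axis) for each gene, with the 95% interval from limma. Col17a1 stands at -1.49, a group from Lama3 to Itga6 lies between -1.24 and -1.03, Plec and Itgb4 lie at -0.51 and -0.45, and Cd151 lies at 0.30.

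Ordered by their differences, the members ran from Col17a1 through Lama3, Dst, Lamb3, Itga6, Plec, Itgb4 and Itga3 to Cd151. The intervals of Lama3, Dst, Lamb3 and Itga6 overlapped throughout. Within arrays, the ratios of Lama3 to Dst, Dst to Lamb3 and Lamb3 to Itga6 overlapped between the tissues, with exact permutation p of 0.9, 0.3 and 0.4. The ratios of Lama3 to Itga6 and of Dst to Itga6, which are not neighbours, differed by -0.21 and -0.20 and were apart (exact permutation p = 0.1 each). Plec and Itgb4 were likewise not separated (difference of their ratio -0.06, exact permutation p = 0.9). The other 4 of the 8 neighbouring pairs were apart in every array: Col17a1 and Lama3, Itga6 and Plec, Itgb4 and Itga3, and Itga3 and Cd151. The limma intervals of Col17a1 and Lama3, and of Itgb4 and Itga3, nevertheless overlapped, as they did for 6 of the 8 neighbouring pairs. Over all 36 pairs of members 31 were apart, each with the smallest possible exact permutation p of 0.1. After Benjamini-Hochberg adjustment over the 36 that p was 0.116. The pairs reuse the same members, so they are not independent of each other. How often pairs of other genes are apart was not tested, so 31 of 36 cannot be read as particular to the set.

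The other probe sets of Dst and Itga6 bear on whether the falls depend on the stretch of transcript measured. Dst had 4 others. At 1385122_at its signals were 8.02, 7.70 and 8.07 in peri-implant tissue, against 8.83, 8.94 and 9.40 in mucosa, a fall of 1.13 (limma adjusted p = 4.57e-04). At 1398598_at they were 9.48, 9.46 and 9.45 in peri-implant tissue, against 10.06, 10.37 and 9.86 in mucosa, a fall of 0.63 (limma adjusted p = 0.0019). The groups were apart at both. The remaining Dst probe sets, 1395274_at and 1397469_at, averaged 4.01 and 1.32 in peri-implant tissue and 4.92 and 2.60 in mucosa, were dim in both tissues and were not tested. The deposited table does not say which of the gene's transcripts each probe set reads.

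Itga6 had 3 other probe sets. At 1393558_at the signals were 7.86, 7.03 and 7.97 in peri-implant tissue, against 9.19, 9.09 and 9.17 in mucosa, and the gene fell by 1.53 (limma adjusted p = 2.03e-04). At 1371186_at they were 7.00, 7.17 and 7.14 in peri-implant tissue, against 7.89, 8.32 and 7.87 in mucosa, a fall of 0.92 (limma adjusted p = 0.0067). The arrays of the tissues were apart at both. Only 1371185_at overlapped, with means of 5.32 in peri-implant tissue and 5.84 in mucosa, and it was dim and not tested. Of the 16 member probe sets 13 were tested and 11 were called lower, where 10.4% of all probe sets tested were called lower.

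**Figure D3:**
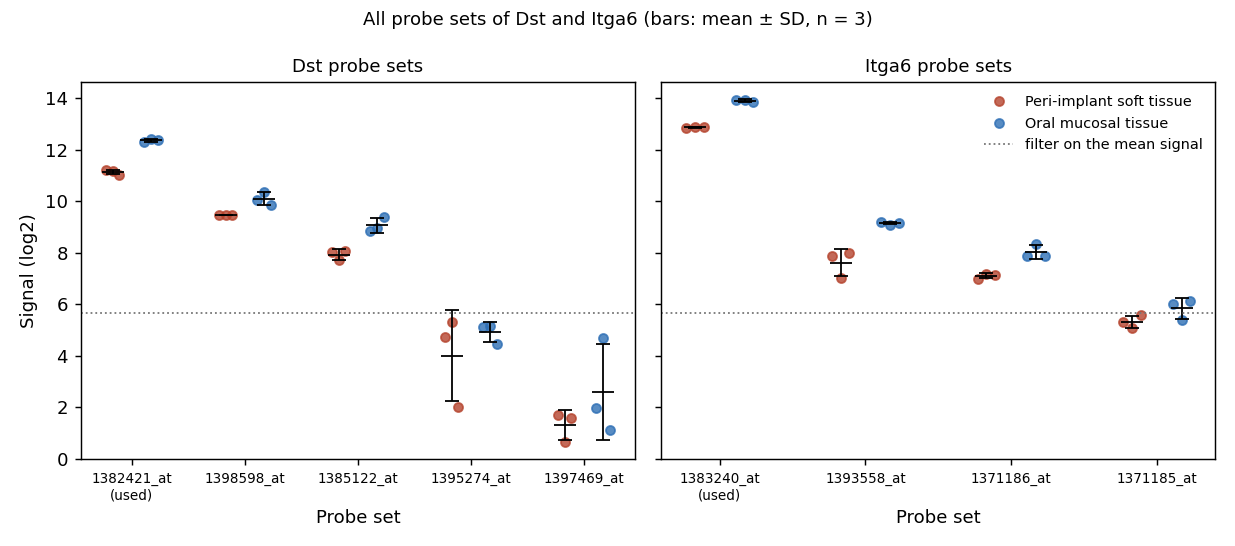
Log2 signal of each probe set of Dst and Itga6 on the 3 peri-implant and 3 mucosal arrays, with mean and SD, and the filter on the mean signal at 5.68 as a dotted line. The bright probe sets of both genes are lower in peri-implant tissue, and those below the line have overlapping groups.

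Related genes were followed in 7 lists, of which 58 genes were on the array and 52 were tested. Of these 10 fell, 9 rose and 33 did not pass, where 11.0% and 15.2% of all genes were called lower and higher. Among the anchoring complex partners, 2 of 8 tested fell and 0 rose. These were Itgb1, above, and Col7a1, the collagen of the anchoring fibrils beneath the basement membrane. Col7a1 had signals of 9.98, 10.21 and 9.94 in peri-implant tissue, against 11.45, 11.48 and 11.72 in mucosa, and fell by 1.51 (SE 0.10). Nid1, a basement membrane linker, and Exph5, a gene of inherited skin fragility, differed by -0.44 and -0.33 and did not pass (limma adjusted p = 0.0915 and 0.123). Nid2 went the other way, by 0.46, and did not pass either (limma adjusted p = 0.238). Lad1, ladinin, another component of the basement membrane zone, stood at 12.15 ± 0.09 in peri-implant tissue and 12.13 ± 0.08 in mucosa (SD, n = 3 each).

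Of 4 other plakins, 1 fell: Macf1, which links actin and microtubules, by 0.41 (limma adjusted p = 7.90e-04). Dsp, Ppl and Evpl, plakins of desmosomes and the cornified envelope, differed by -0.38, 0.10 and 0.04 and did not pass. Among 4 basal keratins, the filaments that hemidesmosomes anchor, Krt5 fell by 0.50 and Krt15 rose by 3.65. Krt14 and Krt17 differed by -0.23 and -0.36 and did not pass. Krt5, Krt14, Krt17 and Dsp came within 0.32 to 0.59 of the highest signal of an array, and whether a ceiling limits their differences was not tested.

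Tetraspanins moved both ways, with 2 of 7 lower and 2 higher. Cd9, which associates with integrins in keratinocytes, had signals of 14.49, 14.42 and 14.38 in peri-implant tissue, against 14.97, 15.16 and 15.31 in mucosa. It fell by 0.72 and Cd63 by 0.25 (limma adjusted p = 1.78e-04 and 0.0167). Cd53, a tetraspanin of leukocytes, rose by 1.91, and Tspan8 by 1.46. Of 9 other laminin receptors and epithelial integrins, Itgb5 fell by 0.39 and Sdc1, a syndecan of epithelium, by 0.32, while Itgb6, an integrin chain of wounded epithelium, rose by 0.43 (limma adjusted p = 0.0202). Itgav differed by -0.22 and did not pass (limma adjusted p = 0.175).

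Among 8 proteases known to cleave laminin-332 or its neighbours, 2 fell and 2 rose. Plat, tissue plasminogen activator, which activates plasmin, a protease that cleaves the laminin α3 chain, had signals of 12.85, 13.06 and 12.95 in peri-implant tissue, against 10.53, 10.63 and 10.40 in mucosa. It rose by 2.43 (SE 0.08, limma adjusted p = 3.04e-10), and Ctss, a cathepsin of antigen-presenting cells, by 1.89. The metalloproteinases Mmp2 and Mmp14 fell by 0.85 and 0.25. Mmp14 barely passed (limma adjusted p = 0.0448), with its groups apart by 0.08. Only 1 protease was called lower under several other settings, among them no variance trend and arrays centred on the median. Of 12 kinases, adaptors and factors known to act on hemidesmosomes, 0 fell and 3 rose. Fyn, a Src family kinase also found in T cells, rose by 0.84, the receptor Erbb2 by 0.49 and the adaptor Shc1 by 0.39. Pik3r1 differed by 0.91 and did not pass (limma adjusted p = 0.0565).

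**Figure D4:**
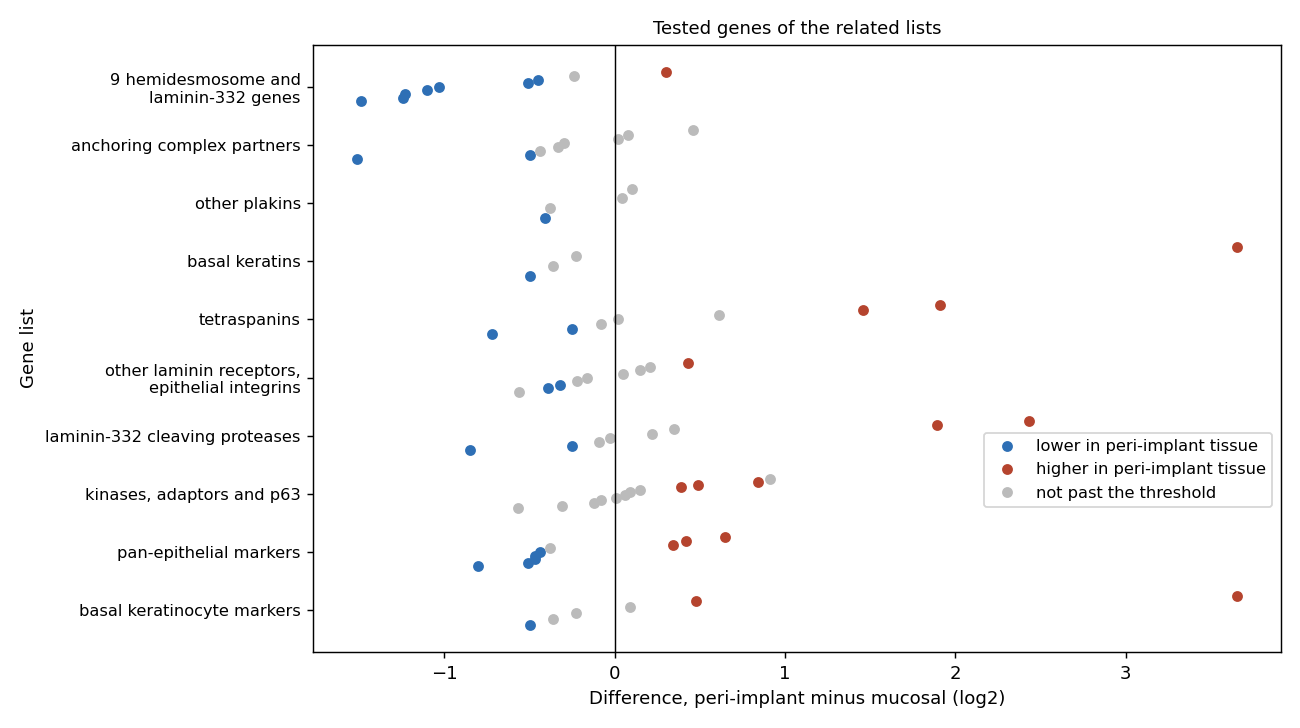
Difference between peri-implant and mucosal tissue on the log2 scale (horizontal axis) for each tested gene of the set, of the 7 related lists and of 2 lists of epithelial markers. The 9 genes lie mostly below 0, with a median of -1.03, and the other lists hold genes on either side, Krt15 farthest to the right at 3.65.

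Markers of the cells in the samples also differed between the tissues. Among 6 basal keratinocyte markers 1 fell, 2 rose and 3 did not pass, and their summed linear signal was 159808 to 210348 in peri-implant tissue and 170505 to 239810 in mucosa. That sum is mostly Krt5, Krt14 and Krt17, which lie near the highest signals of the arrays, so its overlap says little about the other markers. Tp63, which encodes the basal transcription factor p63 and was named after its values were seen, had signals of 13.21, 13.19 and 13.22 in peri-implant tissue, against 13.13, 13.05 and 13.16 in mucosa (limma adjusted p = 0.397). Cdh3, P-cadherin of basal cells, rose by 0.48. Of 9 pan-epithelial markers 5 fell and 3 rose, with sums of 192880 to 241341 in peri-implant tissue and 226589 to 304098 in mucosa. Pkp3, Esrp1 and Jup fell by 0.80, 0.51 and 0.47, and Lsr, Epcam and Cdh1 rose by 0.65, 0.42 and 0.34. The other falls, of Perp by 0.47 and Sfn by 0.44, barely passed (limma adjusted p = 0.0449 and 0.0448), and their groups overlapped.

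Of 8 tested leukocyte markers 8 rose, and the sum of all 9 was 29321 to 31216 in peri-implant tissue and 8534 to 8897 in mucosa. Of 8 fibroblast markers 7 fell and 1 rose, with sums of 39672 to 41444 in peri-implant tissue and 64017 to 70220 in mucosa. Endothelial markers summed to 1006 to 1139 in peri-implant tissue and 659 to 855 in mucosa, with 1 of 6 called, higher. Schwann cell markers summed to 998 to 1220 in peri-implant tissue and 3688 to 3841 in mucosa, carried by Pmp22 and Mbp, while Sox10 and S100b were dim in both tissues. Skeletal muscle markers summed to 3482 to 3942 in peri-implant tissue and 3858 to 4108 in mucosa, with 0 of 3 tested called. Nearly all of that sum is 1 probe set of Myh1. The untested Acta1, skeletal muscle actin, had signals of 2.52, 1.55 and 4.53 in peri-implant tissue, against 6.90, 6.97 and 6.93 in mucosa. Glandular markers summed to 3494 to 3615 in peri-implant tissue and 856 to 967 in mucosa, with 2 of 3 tested higher and 1 lower. Lpo and Scgb1a1 carried the sum and rose by 2.16 and 3.45, Aqp5, a water channel of gland cells, fell by 1.90, and Amy1, Bpifa2 and Oprpn were dim in both tissues. The part of these shifts in the results for the 9 genes was not tested, and in tissue pieces fewer cells of a type and less RNA per cell cannot be told apart.

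The differences were also recomputed against the mean signal of epithelial markers. With each array centred on the mean of the 9 pan-epithelial markers, 5 members were called lower. Col17a1, Lama3, Dst, Lamb3 and Itga6 differed by -1.30, -1.05, -1.05, -0.92 and -0.85. Plec and Itgb4 then differed by -0.33 and -0.26 and did not pass (limma adjusted p = 0.0701 and 0.13), and Cd151 was higher by 0.49. The median of all genes was 0.22 with this centring and 0.03 as reported. Of the pan-epithelial markers, Dsp, Perp and Sfn came within 0.32, 0.58 and 0.76 of the highest signal of an array. Whether a ceiling affects this centring was not tested. The markers themselves moved both ways, 5 lower and 3 higher. Whether their mean follows the amount of epithelium or of basal cells was not tested. With arrays centred on the 6 basal keratinocyte markers, a setting added after the data were seen, 8 members were called lower and Cd151 turned to -0.22 (limma adjusted p = 0.129). Those markers include Krt15, which rose by 3.65, and the median of all genes was -0.49.

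**Figure D5:**
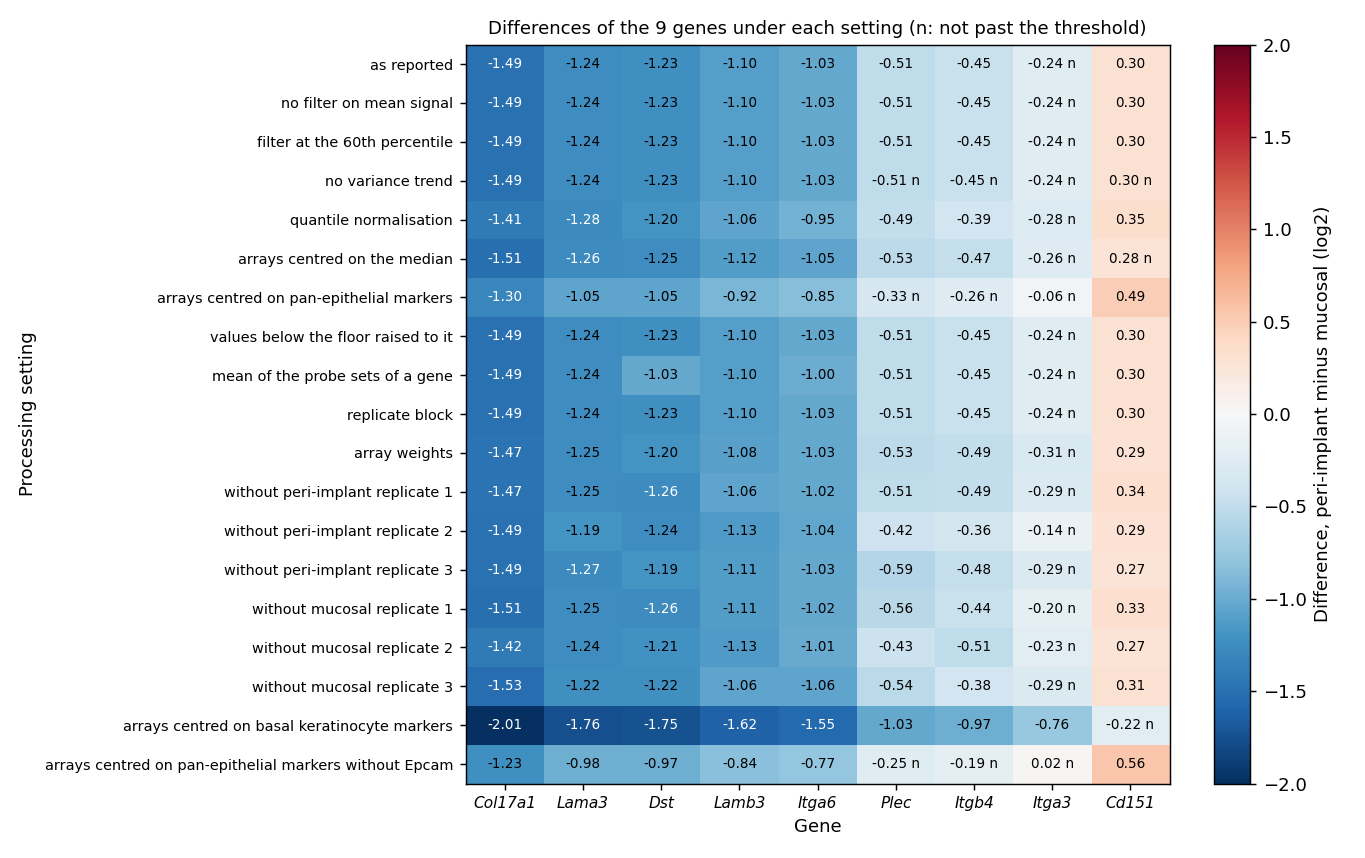
Difference between peri-implant and mucosal tissue on the log2 scale for each gene (columns) under each processing setting (rows), with n beside values that did not pass. Col17a1, Lama3, Dst, Lamb3 and Itga6 stay below 0 and past the threshold in every row, and Plec, Itgb4, Itga3 and Cd151 vary.

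Genes whose pattern over the 6 arrays lay nearest to that of Col17a1 were found by the Euclidean distance between log2 profiles centred on their own mean, among all genes tested outside the set. They were Igfbp6, an IGF-binding protein (distance 0.18), Slurp2, a secreted epithelial protein (0.25), Bnip3, a mitochondrial hypoxia-response gene (0.27), Crip2, a LIM-domain protein (0.28), and Dbp, a clock-controlled transcription factor (0.29). Igfbp6 averaged 7.65 ± 0.05 in peri-implant tissue and 9.14 ± 0.21 in mucosa (SD, n = 3 each). All 5 fell, which their choice by likeness to Col17a1 fixed in advance. Within the set, Dst at 0.37 and Lama3 at 0.38 were nearest to Col17a1, and Cd151 at 2.21 was farthest. The 5 genes nearest to Cd151 were Acly, R3hcc1, Mff, Hsdl2 and Fam8a1, at distances of 0.04 to 0.08. Their rises, of 0.31 to 0.34, were likewise fixed by the choice.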

How the data were processed

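RNA of 3 peri-implant and 3 mucosal samples was amplified and biotin-labelled from the 3′ end, per the labels' protocols, for 1 array a sample. The authors deposited log2 signals for 31099 probe sets, 57 of them controls. The values show that the arrays had been scaled: a linear mean trimmed by 2% at either end came to 500.2 on every array. Which software and background method were used is not stated in those labels or the table. Array number, not read depth, limits the precision.

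The 18625 probe sets with a mean above the 40th percentile (5.68) entered 1 limma fit (version 3.58.1, R 4.3.3), moderated by eBayes with a variance trend and two-sided, with Benjamini-Hochberg adjustment over all of them. Differences are peri-implant minus mucosal, with the SE of the fit. The code of the fit was checked on simulated data with independent values for each probe set. That check holds no shifts shared by an array and cannot bear on the p-values given here. Dim means below 5.90, the 40th percentile of all values. Ratios of members within arrays were compared with an exact permutation test over 20 labellings (scipy 1.17.1).

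Gene names came from the array's annotation, which gave 20832 probe sets 1 symbol and 436 several. The 9780 non-control probe sets without a symbol were tested but not named. Of 69 genes in the related lists 11 were not analysed here. Named genes were all members, up to 4 genes with the smallest p in each list, and the 5 nearest in pattern to Col17a1 and to Cd151. Nid2, Lad1, Cdh1, Jup, Perp, Sfn, Tp63, Sox10, S100b, Myh1, Acta1 and the dim glandular genes were named after their values were seen. The members and lists were chosen with earlier results of these data known. The labels do not say whether equal numbers in the tissues mean the same animal, so samples were not paired. Same-numbered arrays did not deviate together (correlations 0.01, -0.08 and 0.03). That cannot show that pairing is absent, since the numbers may not follow the animals.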

Additional observations from a re-analysis of the deposited data

How the results depend on the processing

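The 9 genes were recomputed under 16 alternatives listed with the design and 2 added after the data were seen. Col17a1, Lama3, Dst, Lamb3 and Itga6 kept their direction and their call under all 18, with differences of -2.01 to -1.23, -1.76 to -0.98, -1.75 to -0.97, -1.62 to -0.84 and -1.55 to -0.77. Without the variance trend the calls for Itgb4 and Plec were lost (limma adjusted p = 0.0588 and 0.0511), 0 members were called higher and 1816 of all genes were called, against 2767 as reported. No member was called higher with arrays centred on the median (0) or on the basal keratinocyte markers (0) either. Under quantile normalisation the median over the members was -0.95. Centring on the pan-epithelial markers gave a median of -0.85, with 4 related genes lower and 14 higher. Without Epcam among those markers it gave -0.77, with 4 lower and 17 higher, and Itga3 turned to 0.02. Centring on the basal keratinocyte markers turned Cd151 to -0.22 and gave a median of -1.55, 6630 genes called in all, and 38 related genes lower and 5 higher. With each array left out in turn, 7 members were called lower and 1 higher every time, the median was -1.06 to -1.01, and 2056 to 2714 genes were called in all. With the replicate number as a block 7 members were lower, 1 was higher and 2704 genes were called. No member's call changed under that block.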
